A study of Mus musculus with 23 samples.

Results

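Gsn and Lima1, which encode the filament-severing protein gelsolin and the filament-bundling protein EPLIN, stood among 10 genes of actin turnover that were followed through every library of a study of SOX6 in mouse oligodendrocyte progenitor cells (OPCs) and oligodendrocytes (OLs). The others were Cfl1, Cfl2 and Dstn of the cofilin family, Wdr1, Wasf1, Arpc3, Actb and Tmsb4x. The genes were chosen by name, with earlier results of these data known. All 10 were among the 35385 gene symbols of the deposited count tables and the 35381 symbols of the table of sorted cells.

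Lima1 responded to SOX6 guides in OLs, and its response there differed from that in OPCs. In OPCs only Gsn passed the test among the 10 genes, and it was 1.77-fold lower with SOX6 guides. In OLs Lima1 was 2.91-fold lower, Wasf1 1.40-fold lower and Gsn 1.34-fold lower. In control cells Lima1 was 3.21-fold higher in OLs than in OPCs, and in SOX6-targeted cells it was 1.20-fold higher. In cells sorted by stage, Lima1 was 15.1-fold and Gsn 4.57-fold higher in OLs on the log2(TPM + 1) scale, whereas Tmsb4x was 2.40-fold lower.

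Actin filaments grow by addition of monomers and are taken apart by severing and by loss of monomers from their older ends. Cofilins and gelsolin sever filaments, the WAVE and Arp2/3 complexes branch new ones, and thymosins hold monomers in reserve. In the oligodendrocyte lineage, actin assembly accompanies the outgrowth of processes, and actin disassembly accompanies the spreading of myelin membrane around axons. SOX6 is a transcription factor of the SoxD group, expressed in progenitors. In these libraries Sox6 RNA was present at both stages and was higher in OLs (values below).

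RNA was sequenced in 23 libraries of 8 groups. Per the labels' protocols the OPCs came from EpiSC5 and 129O1, which are mouse epiblast stem cell lines of strains 129SvEv and 129S1/SvImJ. Which line each library came from is not clear from the labels, so a difference of line between groups cannot be told apart from the groups. The cells were grown without SHH and sorted for CD140a and NG2. In the SOX6 experiment OPCs of 1 batch carried a lentiviral CRISPRv2 vector with a non-targeting guide (sgNTC, called control here), SOX6 guide 1 (sgSox6 g1) or SOX6 guide 2 (sgSox6 g2), and all of these cells passed a 96 hour selection in 500 ng/mL puromycin. They were then kept for 60 hours either in growth medium with PDGFA and bFGF (OPCs: 3 control, 2 guide 1 and 3 guide 2 libraries) or in a medium that permits differentiation, with noggin, IGF-1, cyclic AMP and NT3 and no T3 (OLs: 3 libraries for each guide). These are pools of selected cells, not clones, and the OL cultures were not sorted. The sorted libraries were 3 of magnetically sorted OPCs and 3 of O1+ OLs. Nothing in the labels says that libraries of 1 group came from separate infections, so the p-values below measure the spread between these libraries, which may be technical.

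Library totals ran from 13967438 to 16958611 estimated counts in OPCs and from 13124580 to 18551822 in OLs, and the depth of the sorted libraries is not known. Sox6 itself, the targeted gene, stood at 41.0% and 38.0% of control CPM (counts scaled to the library total) with guides 1 and 2 in OPCs, and at 53.0% and 61.4% in OLs, with no overlap between targeted and control libraries at either stage. The Sox6 call in OLs (adjusted p = 0.00951, edgeR) was lost without control library A or B (adjusted p = 0.0591 and 0.0636, edgeR). It was also lost with a correction for transcript length (adjusted p = 0.105, edgeR). Control OPCs held 165.3 to 233.6 CPM of Sox6 and control OLs 387.2 to 437.1 CPM (log2 1.05, adjusted p = 0.000104, edgeR). Sorted OPCs held 49.9 to 76.0 TPM and sorted OLs 89.7 to 124.0 TPM (log2 0.78, adjusted p = 0.014, limma). Summed OPC markers were at 9693 to 10697 CPM in control OPCs and 10622 to 10793 CPM in control OLs. That sum hides changes, as 3 of the 6 markers were called higher in control OLs and 3 lower (edgeR). On average Pdgfra rose from 21.9 to 108 CPM, Ptprz1 from 4229 to 5697 CPM and Sox10 from 29.1 to 265 CPM. Cspg4 fell from 300 to 185 CPM, Olig1 from 4119 to 3207 CPM and Olig2 from 1596 to 1249 CPM. Summed oligodendrocyte markers rose from 133 to 168 CPM in control OPCs to 2035 to 2234 CPM in control OLs. Library B of OL guide 1 stood apart from the other libraries of its group. Its counts differed from theirs with a chi-square of 104 and 100.1 per degree of freedom, against 6.56 between those libraries, and its log2 ratios fell with transcript length (Spearman rho -0.66 over 8465 genes), whereas those of libraries A and C rose with it (0.58 and 0.63). Where leaving it out changed the call of a member over both guides, both values are given.

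The counts could be turned back into the length of the transcripts that they were assigned to, because counts and TPM (transcripts scaled to their length and to the library) were both deposited. For Dstn, Tmsb4x and Wasf1 that length was 100%, 101% and 100% of the principal annotated transcript (GENCODE M21), for Lima1 98.4% and for Gsn 92.2%. It was 68.0% for Cfl1 and 52.0% for Cfl2. For Actb it was 46.3%, or 889 of 1920 bases, and for Wdr1 it ran from 926 to 2721 of 3089 bases across the libraries. Among 13639 genes with a value, the median was 96.8%, and 13.4% of them lay below 50%. The level listed under Actb is therefore that of transcripts that were on average shorter than the full-length beta-actin mRNA. A mean length cannot tell how much of that level is full-length mRNA. Arpc3 stood at 68.2% with 3.0 to 18.2 counts per library. The levels of Cfl1, Cfl2, Wdr1 and Arpc3 are likewise those of transcripts that were on average shorter than the principal one, which bears on their TPM and on the shares of the cofilin family below. Between 20.4% and 22.4% of the TPM of each library were under no gene symbol; whether they hold reads of these genes was not tested. Reads of Actb and Actg1, and of the processed pseudogenes that resemble Cfl1, Tmsb4x, Arpc3 and Actb, may also be split between copies, so levels of these genes are uncertain.

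**Figure D1:**
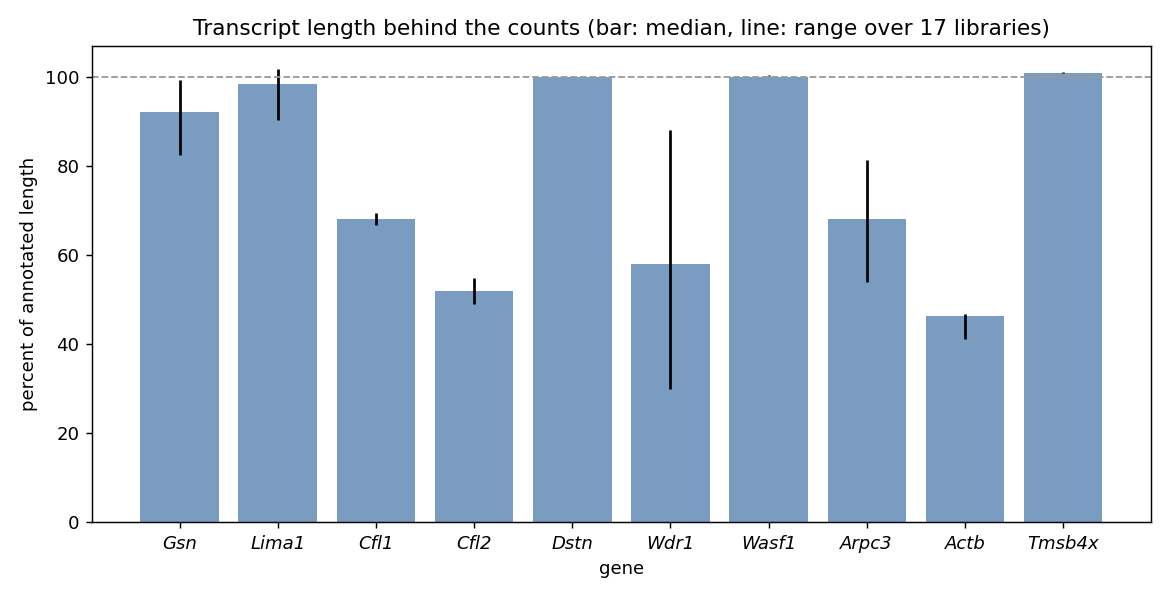
Transcript length behind the counts of each gene, as a percent of its longest principal transcript in GENCODE M21 (bar: median of 17 SOX6 libraries, line: lowest to highest library, dashed line: full length). Gsn, Lima1, Dstn, Wasf1 and Tmsb4x sit at 92.2% or more, and Cfl2 and Actb are at 52.0% and 46.3%.

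Gelsolin caps and severs filaments in the presence of calcium. Gsn (chr2:35256380-35307892, plus strand, mm10) was at 37.5, 43.2 and 34.0 CPM in control OPCs. It was at 19.01 and 18.02 CPM with guide 1 and at 25.0, 24.1 and 24.2 CPM with guide 2. Every targeted OPC library lay below every control library, and both guide 1 libraries lay below the guide 2 libraries. The log2 change over both guides was -0.83 (SE 0.0849, adjusted p = 0.00199 by edgeR's quasi-likelihood test with Benjamini-Hochberg adjustment). Guide 1 alone gave -1.01 (SE 0.110, adjusted p = 0.0053) and guide 2 alone -0.64 (SE 0.0955, adjusted p = 0.016), and the difference between the guides did not pass the edgeR test (log2 0.37, SE 0.109, adjusted p = 0.439). The call over both guides held without any 1 library. The guide 1 call was lost without either guide 1 library and the guide 2 call without any 1 guide 2 library, with adjusted p up to 0.0712 and 0.0758 in edgeR. In a culture, fewer cells that express a gene and less of its RNA per cell cannot be told apart.

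In OLs Gsn was at 59.8, 57.1 and 63.1 CPM in control libraries, at 36.9, 48.2 and 42.4 CPM with guide 1, and at 51.5, 44.0 and 47.5 CPM with guide 2. All targeted libraries were below all controls, and the 2 guides overlapped. The log2 change was -0.42 (SE 0.0947, adjusted p = 0.033 in edgeR), and it lost the call in 7 of 9 fits that left out 1 library, with adjusted p up to 0.172. With guide 1 the gene fell by 0.50 on the log2 scale (adjusted p = 0.0382, edgeR), a call lost in 8 of 9 fits without 1 library (adjusted p up to 0.161) and with no filter on low counts (adjusted p = 0.0568). With guide 2 the value was -0.34 (adjusted p = 0.158, edgeR), and -0.35 without library B of guide 1 (adjusted p = 0.0196, edgeR). The difference between the OL and the OPC response was 0.43 (SE 0.133, adjusted p = 0.156, edgeR), so the stages were not shown to differ for Gsn.

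EPLIN, the product of Lima1, bundles filaments and slows their depolymerization and branching. Lima1 (chr15:99778470-99875456, minus strand) was at 76.2, 72.2 and 80.6 CPM in control OPCs, at 66.5 and 63.7 CPM with guide 1, and at 69.9, 80.5 and 76.0 CPM with guide 2. Guide 2 libraries fell within or near the control range and guide 1 libraries just below it. The log2 change was -0.10 (SE 0.0638, adjusted p = 0.487, edgeR). In OLs the controls were at 237.7, 254.8 and 241.6 CPM. Guide 1 libraries were at 80.2, 65.4 and 80.4 CPM, and guide 2 libraries at 97.4, 88.5 and 97.0 CPM. The controls were thus far above every targeted library, and the targeted OL libraries were at the level of OPCs or slightly above it.

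The log2 change of Lima1 in OLs was -1.54 (SE 0.0827, adjusted p = 2.38e-05, edgeR). Guide 1 gave -1.70 (adjusted p = 6.19e-05) and guide 2 -1.38 (adjusted p = 0.000221) in the same edgeR fit. Without any 1 library the value stayed between -1.57 and -1.50, and the call held each time. The response in OLs minus that in OPCs was -1.42 (SE 0.106, adjusted p = 1.38e-05, edgeR), so the SOX6 response of Lima1 differed between the stages. In the authors' deposited table Lima1 was 1.47 higher on the log2 scale in control than in targeted OLs (adjusted p = 7.46e-19) and 0.08 higher in control than in targeted OPCs (adjusted p = 0.773).

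The RefSeq promoter window of Lima1 is shown because Lima1 was the member with the largest SOX6 response, and because 9 of the 10 members had a window (Actb had none). The 250 bases before the RefSeq start lie at chr15:99820150-99820399, minus strand, GRCm38.p6. This start lies inside the annotated gene span, so it is 1 of several starts, and reads from different starts were not separated here. In all such windows 4 motifs were searched on both strands. The SOX motifs were AACAAT, the shorter ACAAT that lies within it, and the related letters AACAAAG. The last was the CArG box, the motif bound by serum response factor. Capitals mark the matches, an ACAAT whose first base is 157 bases before the start and a CArG box whose first base is 47 bases before it.

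Lima1: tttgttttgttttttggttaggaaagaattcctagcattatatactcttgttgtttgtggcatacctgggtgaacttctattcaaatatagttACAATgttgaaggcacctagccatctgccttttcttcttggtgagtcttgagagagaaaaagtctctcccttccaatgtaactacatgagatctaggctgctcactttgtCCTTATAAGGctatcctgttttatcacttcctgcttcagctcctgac

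The CArG box reads the same on both strands and is counted once. Of 32851 promoter windows of this length, 1.47% held a CArG box, 27.7% an ACAAT, 9.42% an AACAAT and 5.03% an AACAAAG. None of the other windows of the members held any of the 4 motifs, the 3 windows of Gsn included. A match in a window is a description of its letters and not evidence of binding. The GC content of the Lima1 window was 39.2%, the lowest of the members, whose other windows ran from 51.2% to 74.4%.

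Branching of filaments is started by the WAVE complex, of which Wasf1 encodes the WAVE1 subunit, and carried out by the Arp2/3 complex, of which Arpc3 encodes a subunit. Wasf1 (chr10:40883475-40938570, plus strand) was at 177.2, 165.8 and 165.6 CPM in control OLs, at 103.2, 120.6 and 125.9 CPM with guide 1, and at 120.3, 145.0 and 114.2 CPM with guide 2. All targeted libraries lay below all controls, and the 2 guides overlapped. The log2 change was -0.48 (SE 0.0966, adjusted p = 0.0196, edgeR), and the call was lost in 4 of 9 fits without 1 library (adjusted p up to 0.123). Guide 1 alone gave -0.54 (adjusted p = 0.0305, edgeR), a call lost in 5 of 9 such fits. Guide 2 alone gave -0.43 (adjusted p = 0.0786, edgeR), a call gained without library B of guide 1 (log2 -0.44, adjusted p = 0.0174, edgeR) and without library B of guide 2 (log2 -0.55, adjusted p = 0.0466, edgeR). In OPCs Wasf1 was at 84.3, 87.5 and 92.5 CPM in controls and at 59.5 to 78.2 CPM in the 5 targeted libraries. The groups did not overlap there either, but the change of -0.35 did not pass (SE 0.0850, adjusted p = 0.0653, edgeR). It passed with DESeq2 (adjusted p = 0.00822) and with no filter on low counts (adjusted p = 0.0307, edgeR), and in the authors' deposited table (adjusted p = 0.0124). The OL and OPC responses of Wasf1 differed by -0.11 (SE 0.133, adjusted p = 0.824, edgeR). Arpc3 was at most 1.15 CPM in every library and gave no call.

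**Figure D2:**
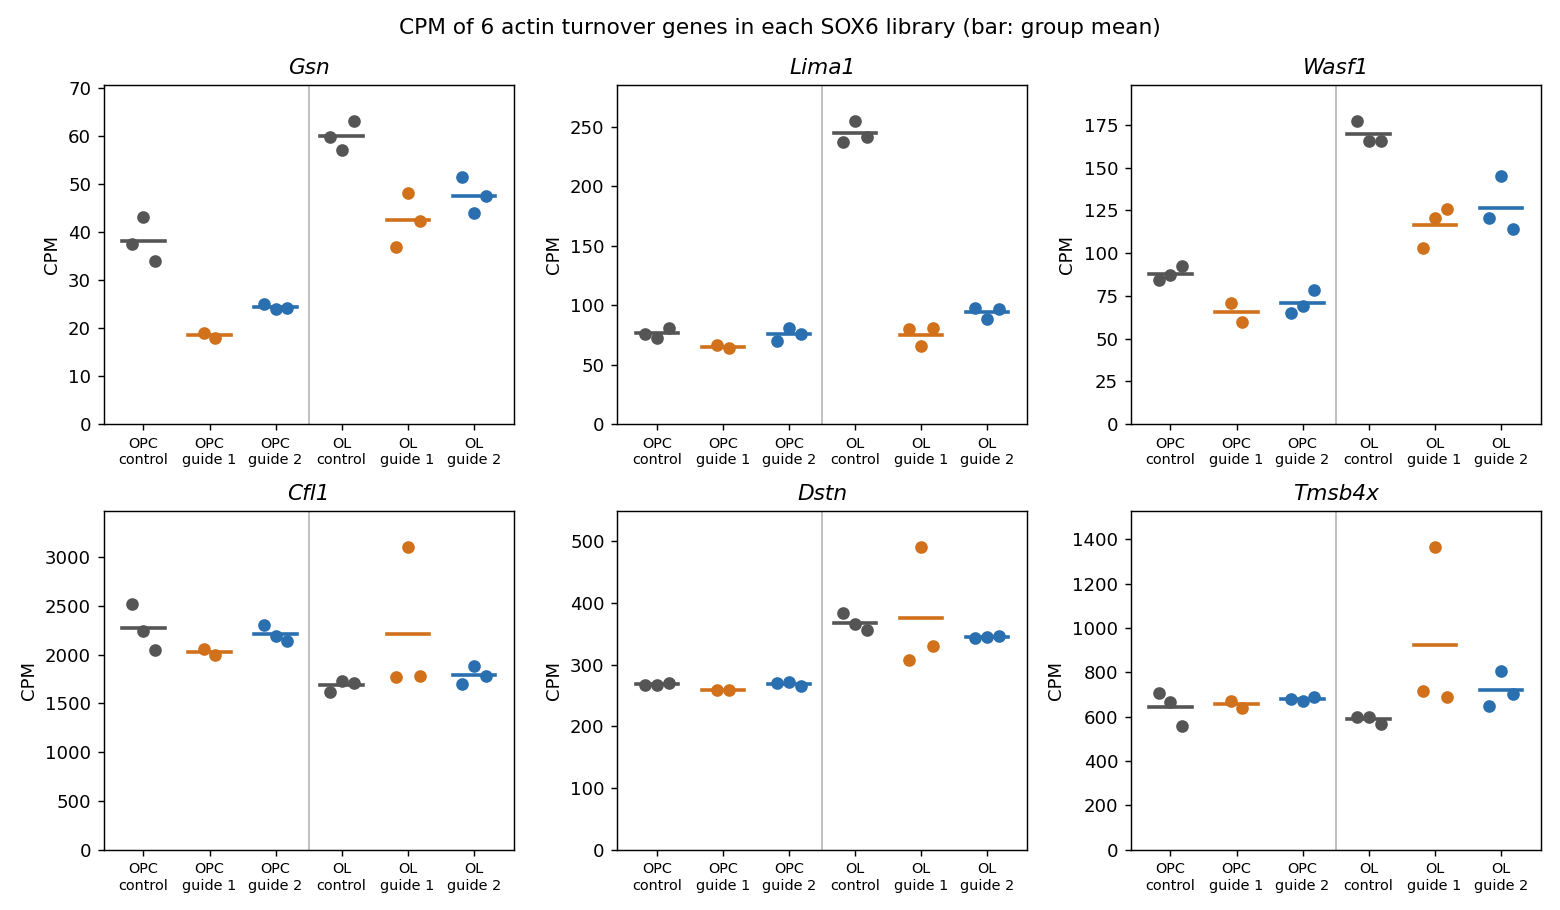
CPM of 6 genes in each library of the SOX6 experiment (points) with the group mean (line), OPCs left and OLs right of the grey line; each axis starts at 0. The targeted libraries of Gsn lie below the controls at both stages, those of Lima1 lie far below the controls in OLs and near them in OPCs, and the high point of Cfl1, Dstn and Tmsb4x in OL guide 1 is library B.

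Cofilin-1, cofilin-2 and destrin (Cfl1, Cfl2 and Dstn) sever filaments and speed the loss of monomers, and Wdr1 encodes their cofactor AIP1. None of the 4 genes passed the test for SOX6 at either stage, with edgeR or with DESeq2. In OPCs Dstn was at 267.5 to 270.7 CPM in controls and at 258.4 to 271.2 CPM in targeted libraries (log2 -0.01, SE 0.0325, adjusted p = 0.962, edgeR). In OLs it was at 383.4, 365.5 and 356.0 CPM in controls, at 308.2, 490.7 and 330.0 CPM with guide 1 and at 342.5, 345.1 and 346.5 CPM with guide 2. Library B of guide 1 was the only targeted one above the controls. Over all libraries the change was -0.04 (SE 0.132, adjusted p = 0.922, edgeR), and without library B it was -0.16 (adjusted p = 0.0142, edgeR). Cfl1 ranged from 2045 to 2523 CPM in control OPCs and from 1617 to 1729 CPM in control OLs, and its targeted libraries overlapped the controls at both stages (adjusted p = 0.574 in OPCs and 0.531 in OLs, edgeR). Cfl2 was at 139.0 to 202.0 CPM in all 17 libraries. Wdr1 varied from 2.09 to 26.9 CPM, and its targeted and control libraries overlapped at both stages.

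Thymosin beta 4, the product of Tmsb4x, sequesters actin monomers. Tmsb4x (chrX:167207093-167209315, minus strand) was at 596.7, 600.4 and 566.8 CPM in control OLs, at 715.7, 1365 and 687.9 CPM with guide 1 and at 648.8, 804.7 and 703.3 CPM with guide 2. All targeted libraries were above all controls, and library B of guide 1 was the highest. The change of 0.47 did not pass with all libraries (SE 0.207, adjusted p = 0.275, edgeR). Without library B it was 0.26 with a smaller spread (adjusted p = 0.0246, edgeR). In OPCs the targeted libraries, at 639.9 to 688.5 CPM, lay within the control range of 556.6 to 708.1 CPM. The transcripts counted under Actb were at 12.7 to 26.0 CPM in control OPCs and 23.6 to 32.5 CPM in control OLs, and overlapped with targeted libraries at both stages.

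In counts over the members, 1 of 10 was called in OPCs over both guides, against 3.59% of the 13358 genes tested, and 1 of 10 with each guide alone, against 2.78% for guide 1 and 2.04% for guide 2. In OLs 3 of 10 were called over both guides and all were lower, against 6.5% of 13447 genes. With guide 1 it was 3 of 10 against 4.92%, and with guide 2 1 of 10 against 4.44%. In OLs, without library B of guide 1, 5 of 10 were called over both guides, 4 lower and Tmsb4x higher. The calls over all genes went from 874 of 13447 to 2337 of 13810. The median log2 change of the members was -0.03 in OPCs and -0.11 in OLs, beside -0.005 and -0.001 over all genes tested. Between the guides edgeR called no gene at either stage (0.0% in OPCs and 0.0% in OLs), with 1106 genes at an unadjusted p under 0.05 in OPCs and 773 in OLs, and DESeq2 called 106 and 14 genes. In the test of the OL response against the OPC response, 1 of 10 members (Lima1) was called, against 1.68% of 14352 genes. The members, and the wider lists below, were chosen with earlier results of these data known. Their counts and medians beside those of all genes, here and below, are thus a description and no test of the group.

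**Figure D3:**
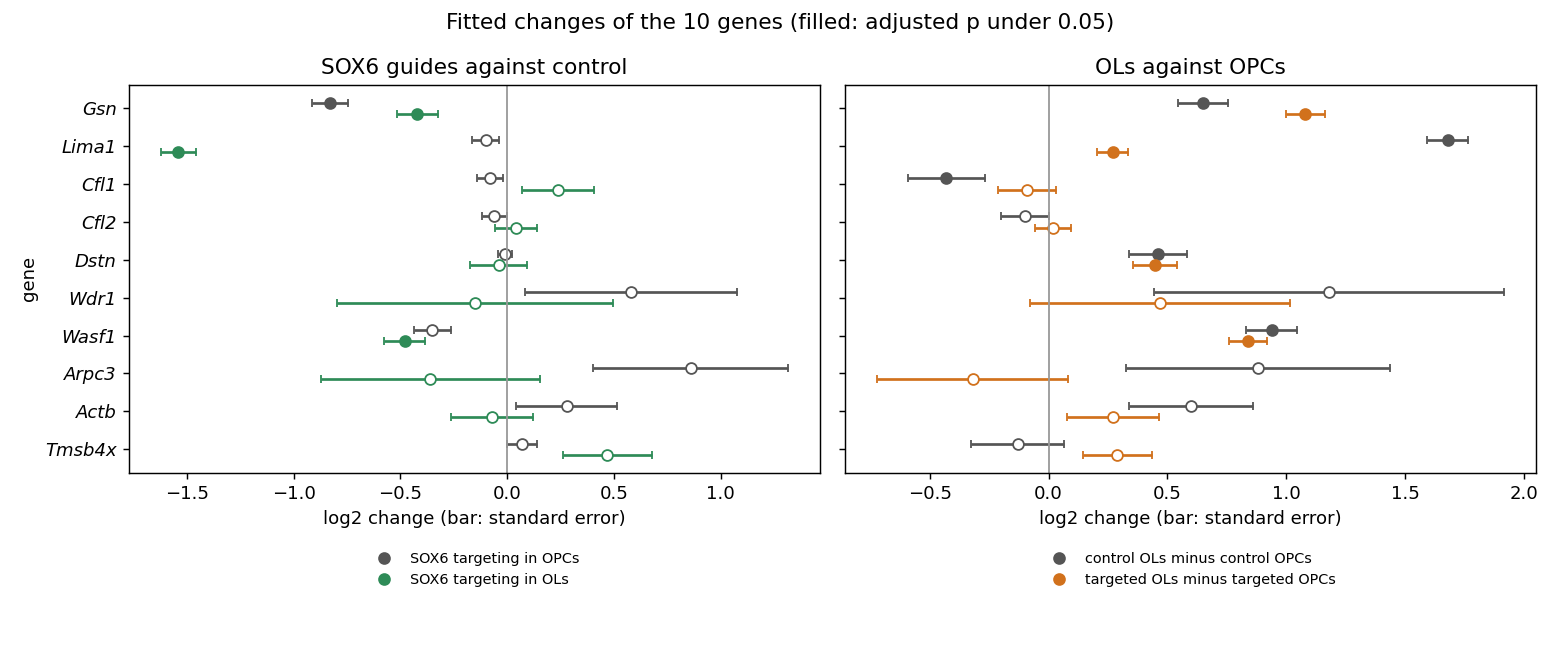
Fitted log2 changes of the 10 genes with their standard errors, for SOX6 guides against control (left; OPCs grey, OLs green) and for OLs against OPCs (right; control cells grey, targeted cells orange); filled points have an adjusted p under 0.05 in edgeR. Lima1 in OLs is farthest to the left at -1.54, and its rise between stages is 1.68 in control and 0.27 in targeted cells.

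Between the stages, OPCs and OLs were counted in separate tables and cultured in different media, so stage, medium and table cannot be told apart. In control cells 5 of 10 members were called, against 43.0% of 14352 genes. Lima1 rose by 1.68 on the log2 scale (SE 0.0868, adjusted p = 1.1e-09), Wasf1 by 0.94 (SE 0.107, adjusted p = 4.78e-06), Gsn by 0.65 (SE 0.106, adjusted p = 0.000154) and Dstn by 0.46 (SE 0.123, adjusted p = 0.00756), all in edgeR. All OL control libraries of these 4 genes were above all OPC control libraries. Cfl1 fell by 0.43 (SE 0.163, adjusted p = 0.0451, edgeR), but lost the call in 13 of 17 fits without 1 library and with a correction for transcript length (adjusted p = 0.0623). The transcripts counted under Actb did not pass (log2 0.60, adjusted p = 0.0794, edgeR), but did without library B of OL guide 1 (adjusted p = 0.0403) and without library C of the OPC controls (log2 0.90, adjusted p = 0.0134). In targeted cells 4 of 10 members were called, against 52.4% of genes: Gsn at 1.08, Wasf1 at 0.84, Dstn at 0.45 and Lima1 at 0.27 (adjusted p = 3.64e-08, 5.5e-07, 0.000826 and 0.0028, edgeR). Lima1 overlapped between guide 1 OPCs and guide 1 OLs, through library B at 65.4 CPM, and did not overlap between those of guide 2. Without library B, Cfl1 was also called in targeted cells and fell by 0.25 (adjusted p = 0.000599, edgeR).

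The sorted cells gave a second set of libraries for the stages. Lima1 was at 17.6, 15.7 and 18.2 TPM in sorted OPCs and at 242.7, 290.7 and 288.9 TPM in sorted OLs. Gsn was at 22.7, 14.6 and 26.3 TPM in sorted OPCs and at 97.8, 103.5 and 92.0 TPM in sorted OLs. Dstn went from 139.0, 138.4 and 147.0 TPM to 463.3, 502.0 and 460.8 TPM. The groups were far apart for all 3 genes. On the log2(TPM + 1) scale their changes were 3.92 (SE 0.117, adjusted p = 3.94e-06), 2.19 (SE 0.215, adjusted p = 0.000277) and 1.74 (SE 0.0895, adjusted p = 2.12e-05) in limma.

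Wasf1 rose from 29.7, 31.6 and 38.3 TPM to 91.1, 114.9 and 98.9 TPM (log2 1.59, SE 0.142, adjusted p = 0.000187, limma). Cfl2 rose from 126.2, 134.0 and 142.5 TPM to 209.5, 215.5 and 204.5 TPM (log2 0.64, SE 0.0917, adjusted p = 0.00136, limma). Tmsb4x was the only member called lower: it fell from 1054, 1060 and 1271 TPM to 498.7, 457.5 and 449.4 TPM (log2 -1.26, SE 0.114, adjusted p = 0.000197, limma). No library of 1 stage reached those of the other for these 3 genes. In unsorted controls Tmsb4x overlapped between the stages (log2 -0.13, adjusted p = 0.633, edgeR); the 2 experiments were not tested against each other. Cfl1, at 1743 to 1888 TPM in sorted OPCs and 2064 to 2170 TPM in sorted OLs, did not pass (log2 0.22, adjusted p = 0.0657, limma) although the groups did not overlap. It passed with no filter on low values (adjusted p = 0.0385) and with libraries centred on their median (log2 0.31, adjusted p = 0.0302), and its value pointed the other way in unsorted controls. The transcripts counted under Wdr1 rose from 2.64 to 4.66 TPM to 6.75 to 15.4 TPM (log2 1.38, adjusted p = 0.00898, limma). Those under Actb rose from 18.4 to 27.8 TPM to 29.9 to 37.5 TPM (log2 0.55, adjusted p = 0.0332, limma), a call lost in 4 of 6 fits without 1 library. Arpc3 stayed between 1.13 and 3.54 TPM. In all, 8 of 10 members were called, against 60.2% of 11900 genes, and the members' median was 1.01 beside -0.14 over all genes.

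**Figure D4:**
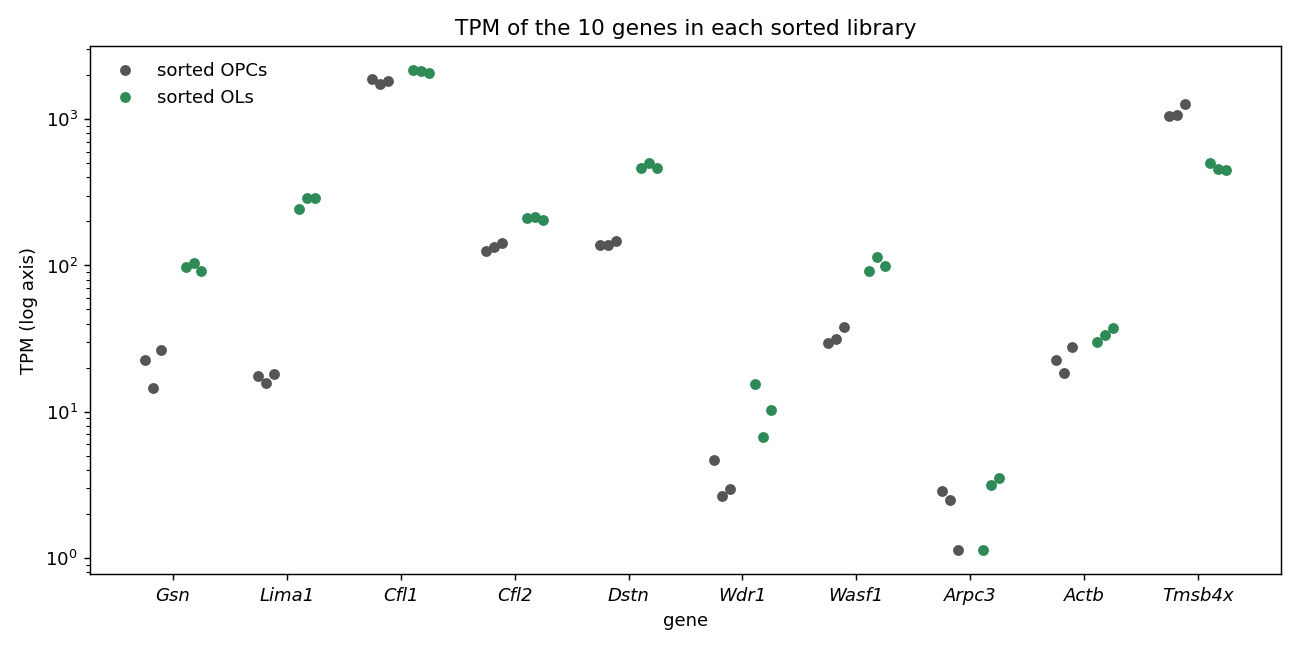
TPM on a log axis of the 10 genes in the 3 sorted OPC libraries (grey) and 3 sorted OL libraries (green). Lima1 shows the widest gap, from 15.7 to 18.2 TPM up to 242.7 to 290.7 TPM, and Tmsb4x is the gene whose OL points lie below its OPC points.

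Ordered by level per transcript length, Cfl1 was the highest of the 10 in control OPCs (1736 ± 106 TPM, SD, n = 3), followed by Tmsb4x (1279 ± 91.4 TPM), Dstn (166 ± 11.1 TPM) and Cfl2 (136 ± 1.87 TPM). Wasf1 (36.7 ± 3.97 TPM) and Actb (31.3 ± 11.9 TPM) came next and overlapped, then Lima1 (20.3 ± 1.83 TPM) and Gsn (17.96 ± 1.58 TPM), which overlapped too, as did Actb and Lima1. Wdr1 and Arpc3 were lowest. In control OLs Lima1 (73.5 ± 3.98 TPM) was beside Wasf1 (77.7 ± 2.76 TPM) with overlapping ranges, and both stood above Gsn (32.5 ± 1.09 TPM). In sorted OLs Lima1 (274 ± 27.2 TPM) exceeded Cfl2 (210 ± 5.47 TPM) and Wasf1 (102 ± 12.1 TPM). Gsn (97.8 ± 5.78 TPM) overlapped with Wasf1.

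Within the cofilin family, the share of Dstn in the summed TPM of Cfl1, Cfl2 and Dstn was 8.20% ± 0.923 (SD, n = 3) in control OPCs and 13.8% ± 0.924 in control OLs, with no overlap. In sorted cells it went from 6.77% ± 0.276 to 16.96% ± 0.698. Cfl1 made up 85.1% ± 1.15 in control OPCs and 78.8% ± 1.09 in control OLs, and in sorted cells 86.8% ± 0.768 and 75.6% ± 0.807. The Dstn share in targeted OLs was 11.5% ± 0.806 with guide 1 and 12.55% ± 0.595 with guide 2. The highest guide 2 library (13.14%) was above the lowest control (13.06%), and guide 1 libraries were below all controls. The shares are given as a description, with no test.

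**Figure D5:**
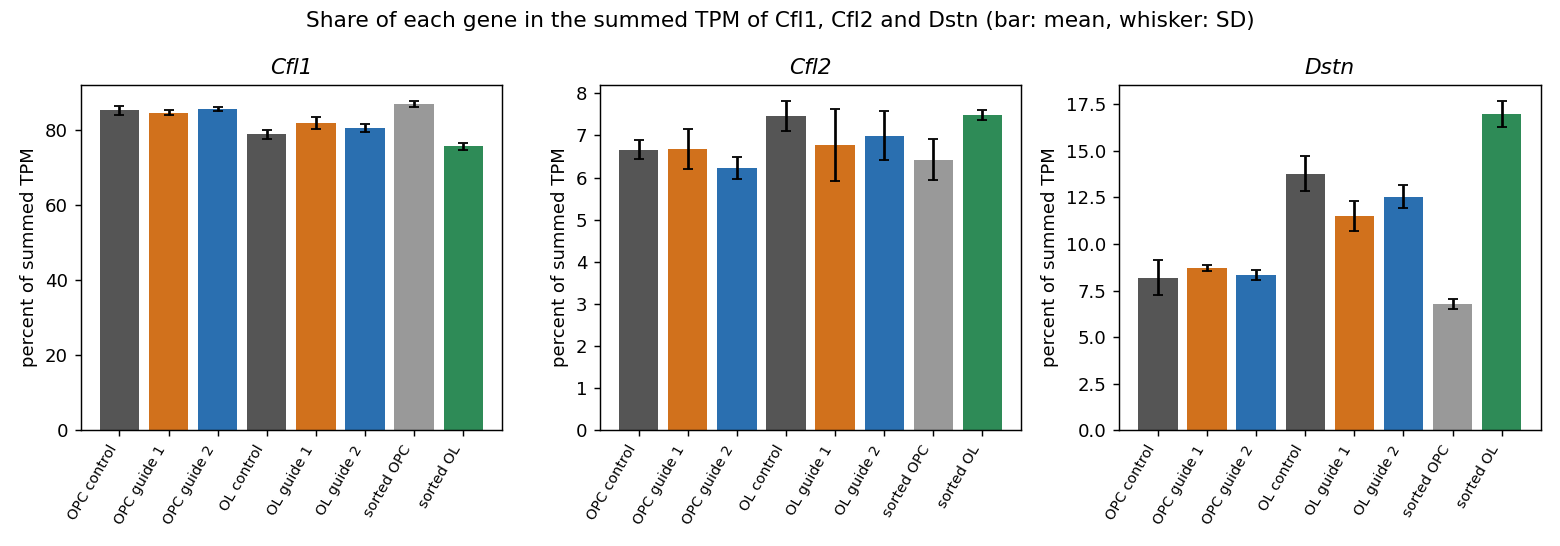
Mean share of Cfl1, Cfl2 and Dstn in their summed TPM in 8 groups, with the SD over the 2 or 3 libraries as whiskers; each axis starts at 0 and has its own scale. The share of Dstn is higher in OLs than in OPCs, 13.8% against 8.20% in control cells and 16.96% against 6.77% in sorted cells.

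Markers of other cells moved with some of these comparisons. In OPCs Gsn was lower with SOX6 guides. The summed astrocyte markers there were at 1350 to 1488 CPM in controls and 1615 to 1771 CPM in targeted libraries. The oligodendrocyte markers were at 133 to 168 and 192 to 231 CPM, and neither sum overlapped. Most of that oligodendrocyte sum was Cnp, at a mean of 139 CPM in controls, 209 with guide 1 and 194 with guide 2. Of 6 oligodendrocyte markers tested in these OPCs, 3 were called higher and 0 lower (edgeR). Of 11 neuronal markers 4 were called lower and 1 higher there (edgeR), and their sums of 1296 to 1605 CPM in controls and 1190 to 1348 CPM in targeted libraries overlapped. Summed over 12 genes, astrocyte markers were at 6568 to 6881 CPM in control OLs and at 7523 to 8933 CPM in targeted OLs. In sorted cells they were at 545 to 615 TPM in OPCs and 2080 to 4138 TPM in OLs. The astrocyte list did not move as 1 there: of 10 tested, 5 were called higher and 2 lower in sorted OLs (limma). Mean Gfap went from 0.252 to 193 TPM (99.3 to 376 TPM in sorted OLs) and Gja1 from 91.4 to 200 TPM. Mean Apoe went from 77.9 to 1380 TPM and S100b from 22.9 to 989 TPM. Slc1a3 went from 25.2 down to 2.83 TPM and Fgfr3 from 51.5 down to 24.9 TPM. The 9 oligodendrocyte markers were at 2540 to 2997 CPM in targeted OLs, above the 2035 to 2234 CPM of their controls, while Gsn, Lima1 and Wasf1 were below theirs. The 11 neuronal markers were at 2480 to 2583 CPM in control OLs and at 1163 to 2345 CPM in targeted OLs, with the lowest value in library B of guide 1. The 11 fibroblast or pericyte markers went from 188 to 197 CPM in control OLs to 70.5 to 141 CPM in targeted OLs, and 64.2 to 191 CPM of that sum was Cspg4, which OPCs also express. The part of these cells in the results was not tested. Microglia are rich in thymosin beta 4, and their 10 markers summed to at most 3.78 CPM and 1.37 TPM in any library.

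The wider actin system held 142 genes in 9 lists, which include the members. In OPCs 2 were higher and 5 lower of 124 tested, where 3.59% of all genes were called. In OLs 6 were higher and 6 lower of 125, where 6.5% of all genes were called. Each count covers both guides in edgeR. Profilin 2 (Pfn2), which delivers monomers to growing ends, rose in OPCs from 246 to 256 CPM to 316 to 340 CPM (log2 0.40, adjusted p = 0.00254, edgeR). Cyfip1, a subunit of the WAVE complex, rose by 0.27 (adjusted p = 0.0192, edgeR). The transgelin Tagln2 fell by 0.47, the tropomyosin Tpm1 by 0.42 and the adducin Add2, a capping protein, by 0.42 (adjusted p = 0.0187, 0.00241 and 0.0183, edgeR). Among 19 tested genes for cofilins, their cofactors and kinases, 0 passed at either stage with edgeR and 0 with DESeq2, and 1 had an unadjusted p under 0.05 at each stage. Among the 10 genes of the Arp2/3 complex, 0 passed in OPCs with either tool, and 2 had an unadjusted p under 0.05. Over all genes, edgeR called 3.59% in OPCs and 6.5% in OLs, and DESeq2 called 787 and 1358 genes. An unadjusted p under 0.05 in edgeR was found for 2294 of 13358 genes in OPCs and 2495 of 13447 in OLs. Beside such shares, counts of 0 in lists this short do not set these genes apart.

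In OLs the formin Inf2 rose from 3.34 to 5.18 CPM to 6.53 to 11.5 CPM (log2 1.32, SE 0.238, adjusted p = 0.0116, edgeR), and the formin Fmnl2 rose by 0.65 (adjusted p = 0.0267, edgeR). Of 15 tested formins and Ena/VASP genes 3 were higher and 0 lower in edgeR, and 4 higher and 0 lower in DESeq2. Of the 15, 1 was lower at an unadjusted p under 0.05 in edgeR. Over all 13447 genes in OLs, edgeR called 421 higher and 453 lower, and 2495 had an unadjusted p under 0.05. DESeq2 called 1358 genes. The immediate early gene Egr1 rose by 0.75 (adjusted p = 0.018, edgeR). Tagln2 fell from 23.4 to 27.5 CPM to 12.4 to 16.1 CPM (log2 -0.81, SE 0.104, adjusted p = 0.00234, edgeR). Arpc1b, an Arp2/3 subunit, fell by 0.56 (adjusted p = 0.0479, edgeR). In the test of the stages' responses, Lima1 was the only lower gene of 127. Inf2 (1.31, adjusted p = 0.042) and Ezr, which links filaments to the membrane (0.60, adjusted p = 0.00402), were higher in edgeR. Over all 14352 genes that test called 1.68%, with 131 higher and 110 lower. Ezr was at 94.1 to 103 CPM in control OLs and at 130 to 161 CPM in targeted OLs.

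Between the stages in control cells 29 of 127 tested actin genes were higher and 29 lower in OLs, a share near the 43.0% called among all genes. The formin Daam2 rose by 2.56 (adjusted p = 2.42e-07), Cyfip2 by 3.39 (adjusted p = 0.00516) and the capping regulator Carmil1 by 1.78 (adjusted p = 2.18e-05) in edgeR. Moesin (Msn) fell from 610 to 636 CPM to 138 to 149 CPM (log2 -2.10, adjusted p = 1.31e-10, edgeR), the formin Diaph3 fell by 1.93 (adjusted p = 2.06e-08, edgeR), and Egr1 fell by 1.57 (adjusted p = 1.77e-07, edgeR). In sorted cells 44 of 112 were higher and 27 lower in OLs, a share near the 60.2% called among all genes. Daam2 rose by 3.49 and Msn fell by 2.45 there too (adjusted p = 3.24e-05 and 5.7e-05, limma). Cyfip2 was also higher in sorted OLs (0.0 to 0.491 TPM in OPCs, 11.1 to 11.7 TPM in OLs). Egr1 was also lower (21.5 to 57.2 TPM in OPCs, 6.32 to 16.5 TPM in OLs). Diaph3 went the other way, from 11.5 to 15.3 TPM in OPCs up to 37.7 to 43.6 TPM in OLs. Carmil1 overlapped between the sorted stages, at 8.82 to 12.6 TPM and 10.2 to 16.5 TPM. Limk1, a kinase that inactivates cofilin by phosphorylation, fell from 23.5 to 30.5 TPM to 3.89 to 5.13 TPM (log2 -2.29, adjusted p = 4.33e-05, limma), and the Arp3 paralog Actr3b fell by 1.79 (adjusted p = 2.74e-05, limma). Arpc1a rose by 4.64 and Arpc1b by 3.87 (adjusted p = 4.27e-06 and 4.89e-05, limma). Their counts in the SOX6 libraries came from transcripts of 54.6% and 37.3% of the principal length, so their level may not be that of the full mRNA.

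The genes whose levels followed Gsn most closely over the 6 SOX6 groups were Trim67, Sox9, Wasf1, Palm and Bin1, with root mean square differences of 0.11, 0.17, 0.17, 0.18 and 0.18 on the centred log2(CPM + 1) scale among 8465 genes. Trim67 was at 43.2, 22.6 and 25.0 CPM in OPCs (control, guide 1 and guide 2) and at 78.2, 47.7 and 58.9 CPM in OLs. Sox9 was at 290.0, 190.0 and 178 CPM in OPCs and at 415, 332 and 370.0 CPM in OLs. Those closest to Lima1 were Matn2, Dixdc1, Slc6a6, Slc35f1 and Map1b, with differences of 0.12, 0.17, 0.21, 0.22 and 0.24. Matn2 was at 11.8, 10.2 and 13.0 CPM in OPCs and at 35.7, 13.1 and 17.04 CPM in OLs. Dixdc1 was at 17.7, 21.5 and 18.3 CPM in OPCs and at 67.7, 22.3 and 27.0 CPM in OLs. Both were thus high in control OLs and near the OPC level in all other groups. Likeness over 6 group means is a description with no test.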

How the data were processed

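Poly(A) libraries were made with a kit that does not mark strand (NEBNext Ultra, per the labels' protocols), so overlapping antisense genes cannot be told apart. Per the submitters' processing notes, Salmon 0.14.1, DESeq2 and mm10 were used. The authors deposited estimated counts (expected counts) and TPM per gene symbol for the 17 SOX6 libraries, in 1 table of each kind per stage, and TPM for the 6 sorted libraries. The authors' tables of DESeq2 results, with log2 fold changes and adjusted p-values, were copied only where named. Estimated counts were rounded and tested with edgeR 4.0.16 in R 4.3.3 (quasi-likelihood F test, filterByExpr with a minimum count of 10, TMM, Benjamini-Hochberg over all genes tested, threshold 0.05, two-sided). CPM were scaled by TMM over all 17 libraries. For the sorted cells limma 3.58.1 was run on log2(TPM + 1) of genes that reached 1 TPM in 3 libraries; 4 entries with repeated names were left out. DESeq2 1.42.0 was an alternative. Further actin genes were named by a rule: up to 3 per direction with the largest called change whose higher group averaged 10 CPM or more (TPM when sorted). A gene that this rule names is not reported here. The fits were tested on simulated data. Columns are lettered, so letters name libraries and pair nothing. Counted lengths came from counts divided by TPM, calibrated on genes with 1 annotated transcript. The members and lists were chosen with earlier results of these data known. Promoter sequences are from RefSeq (GRCm38.p6).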

Additional observations from a re-analysis of the deposited data

Results flagged for a closer look

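The SOX6 response of Lima1 differed between the stages: the change in OLs minus the change in OPCs was -1.42 on the log2 scale (SE 0.106, adjusted p = 1.38e-05 for the interaction term in edgeR). All 6 targeted OL libraries were below all 3 control OL libraries, whereas in OPCs the targeted and control libraries overlapped. Stage and table cannot be told apart, so an offset between the tables is shared by targeted and control libraries in this difference.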

How the results depend on the processing

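Most values kept their direction and their side of the threshold. Of the member counts, the OPC count over both guides was 2 with no filter on low counts, where 520 of 20670 genes were called. It was 2 with DESeq2 (787 of 35385 symbols), and the guide 1 count in OPCs was 2 with DESeq2 (776 symbols). The guide 2 count was 0 in OPCs with a transcript length offset, where Gsn had an adjusted p of 0.061 in edgeR. With that offset 110 of 13358 genes were called for guide 2. With no filter the OL counts were 2 over both guides and 2 for guide 1, where Gsn lost its call (adjusted p = 0.0513 and 0.0568, edgeR). Of all 21368 genes without the filter, 675 and 494 were called. In OLs the guide 2 count was 2 with library totals, 2 with DESeq2 and 2 with both stages in 1 fit. Over all genes the guide 2 calls were 587 of 13447, 999 of 35385 symbols and 1171 of 14352 in these settings. Without 1 library, the count ran from 0 to 1 for guide 1 and from 0 to 1 for guide 2 in OPCs, and in OLs from 1 to 5 over both guides, from 1 to 4 for guide 1 and from 1 to 4 for guide 2. Where 1 guide 1 OPC library remained, it was assumed to vary like the other groups. The sign turned with library totals for Dstn in OPCs (0.0028), Cfl2 in OLs (-0.027) and Cfl2 between targeted stages (-0.036); none of these was called. Without 1 library it turned for uncalled values in OPCs of Cfl2 (-0.11 to 0.01), Dstn (-0.016 to 0.0057) and Tmsb4x (-0.014 to 0.14), and for Lima1 with guide 2 (-0.053 to 0.049). In OLs it did for Cfl2 (-0.041 to 0.078), Dstn (-0.16 to 0.024), Wdr1 (-0.45 to 0.46), Arpc3 (-0.63 to 0.050) and Actb (-0.20 to 0.043). It also did for Cfl2 between targeted stages (-0.056 to 0.061), Dstn in the test of the responses (-0.13 to 0.054) and Arpc3 in sorted cells (-0.10 to 0.51). The cause was not tested. Calls over all genes were 479 in OPCs, against 787 with DESeq2, 237 with the length offset, 254 in 1 fit of both stages and 149 at the lowest without 1 library. In OLs they were 874, against 1358, 580, 1604 and 353 at the lowest, and for the difference of the responses 241, against 488 with DESeq2, 103 with the length offset and 113 to 638 without 1 library. Without library B of OL guide 1 they were 2337 of 13810 in OLs and 638 of 14299 for the difference. For guides 1 and 2 alone in OLs they were then 1580 and 2147. Arpc3 had 3.0 to 18.2 counts per library and Wdr1 29.5 to 426. No paired analysis was possible because the columns carry letters and not the replicate numbers of the labels.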
